A study of Mus musculus and Mus musculus
Oryx dammah with 30 samples.

Results

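The 9 genes Tdpoz1, Tdpoz2, Tdpoz3, Tdpoz4, Tdpoz5, Zfp352, Sp110, B020004J07Rik and Nat8f2 were followed by gene name through 3 RNA-seq tables of mouse nuclear transfer (NT) embryos. Each name was found once in every table, among 53023 genes of the four-cell table, 55364 of the two-cell table and 53023 of the replication table. All embryos came from in vitro fertilization of the strains C57BL/6 and DBA/2, received nuclei of C2C12 cells, an established myoblast line from C3H mice, and were kept in 0.1 µg/ml demecolcine, which holds the cell cycle before division. In the four-cell experiment NT began at 46 hours post insemination (hpi), and 3 pools of 3 embryos were cultured for 24 h with α-amanitin, a toxin that blocks RNA polymerase II, and 3 pools without it. In the two-cell experiment NT began at 21 hpi for early and 30 hpi for late two-cell embryos. There 6 pools of 5 embryos were cultured for 24 h with and 6 without α-amanitin. The replication experiment held 3 pools named DR and 3 named D, each of 4 four-cell embryos and none given α-amanitin. The labels do not say what the letters D and DR stand for, so no direction was read as an effect of DNA replication. Comparing each NT group with its α-amanitin control addressed which transcripts were made after the transfer, because RNA that the embryo or the donor already held does not need new transcription. Reads were not separated by strain here, so recipient and donor transcripts were counted together.

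Tdpoz genes encode proteins with a TRAF-homology (TD) and a POZ domain, the arrangement of SPOP, the substrate adaptor that brings proteins to the ubiquitin ligase CUL3. They lie in a cluster of related copies and are known as genes of the mouse two-cell embryo. Zfp352 encodes a zinc finger protein of the same stage. Sp110 belongs to the speckled protein family of SP100, whose members sit in nuclear bodies and read chromatin, and Nat8f2 to the NAT8 family of N-acetyltransferases. No role is given here for B020004J07Rik.

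The 5 Tdpoz genes lay within chr3:93651542-93961314 of the mm10 build, with Tdpoz2, Tdpoz1 and Tdpoz5 on the minus strand and Tdpoz4 and Tdpoz3 on the plus strand. Zfp352 lay at chr4:90218820-90225702 on the plus strand, and B020004J07Rik at chr4:101834969-101844023, Nat8f2 at chr6:85865422-85869158 and Sp110 at chr1:85576899-85598817 on the minus strand. The family likeness matters for every Tdpoz value, because a read that fits several copies cannot be assigned to one of them. The first 90 coding bases of each gene are shown for this reason, read 5′ to 3′ along the coding strand from the GENCODE vM21 transcripts. Capitals mark bases that differ from Tdpoz5 at the same position.
Tdpoz5: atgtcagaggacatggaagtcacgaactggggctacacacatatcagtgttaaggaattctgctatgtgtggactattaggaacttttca
Gm10697: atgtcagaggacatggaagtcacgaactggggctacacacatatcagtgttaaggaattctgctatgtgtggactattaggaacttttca
Tdpoz2: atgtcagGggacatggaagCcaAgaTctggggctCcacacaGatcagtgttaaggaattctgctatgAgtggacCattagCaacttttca
Tdpoz1: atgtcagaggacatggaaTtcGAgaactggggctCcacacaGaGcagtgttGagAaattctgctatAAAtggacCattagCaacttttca
Tdpoz3: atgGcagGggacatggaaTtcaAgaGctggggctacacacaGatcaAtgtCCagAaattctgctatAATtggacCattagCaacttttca
Tdpoz4: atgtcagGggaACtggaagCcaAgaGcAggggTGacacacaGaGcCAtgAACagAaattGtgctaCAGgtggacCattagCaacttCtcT
The windows of Tdpoz5 and Gm10697, a further copy that the two-cell table names Tdpoz7, were the same base for base. The other windows differed from Tdpoz5 at 9 positions in Tdpoz2, 13 in Tdpoz1, 15 in Tdpoz3 and 25 in Tdpoz4. Over the whole coding sequence of 1020 bases, Tdpoz5 and Gm10697 were identical throughout. The members themselves were 77.3% (Tdpoz3 and Tdpoz4) to 88.0% (Tdpoz1 and Tdpoz3) identical to each other.

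The longer read of each pair had 50 bases, so each member's transcripts were cut into all runs of 50 bases and these were looked up in the transcripts of every other gene. Of the runs of Tdpoz5, 0.0% were found in no other gene, and all were shared with Gm10697. The share found in no other gene was 33.8% for Tdpoz3, 51.7% for Tdpoz2, 55.6% for Tdpoz1 and 58.8% for Tdpoz4. It was 57.7% for Sp110, 82.1% for Nat8f2, 86.6% for B020004J07Rik and 92.9% for Zfp352. Levels of Tdpoz5 were therefore those of Tdpoz5 and Gm10697 together, in whatever way the counting divided them, and levels of Tdpoz3 rested on a smaller stretch of its own than those of Tdpoz1, Tdpoz2 and Tdpoz4.

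Promoter windows from RefSeq (GRCm38.p6), reaching from 250 bases before to 50 bases after an annotated start, were at hand for 6 of the 9 members: Tdpoz1, Tdpoz4, Tdpoz5, Zfp352, Nat8f2 and Sp110, the last with a pair of windows. They were searched on both strands for TATAAA (a form of the TATA box), CCAAT (the CCAAT box), GGGCGG (the GC box) and GGATTA. The last is the core that OTX and OBOX homeodomain proteins bind. The windows of Zfp352 (chr4:90218570-90218869, plus strand), of Sp110 with the earlier start (chr1:85603842-85604141, minus strand) and of Tdpoz1 (chr3:93676234-93676533, minus strand) are shown 5′ to 3′ because each holds GGATTA on 1 of its strands. Capitals mark matches to any of these motifs.
Zfp352: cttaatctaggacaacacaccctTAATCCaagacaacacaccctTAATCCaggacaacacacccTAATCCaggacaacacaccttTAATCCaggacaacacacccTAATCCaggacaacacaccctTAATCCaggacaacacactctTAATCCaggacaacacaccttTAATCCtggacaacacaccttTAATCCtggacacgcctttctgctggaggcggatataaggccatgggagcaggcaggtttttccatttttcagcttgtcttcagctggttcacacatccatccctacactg
Sp110: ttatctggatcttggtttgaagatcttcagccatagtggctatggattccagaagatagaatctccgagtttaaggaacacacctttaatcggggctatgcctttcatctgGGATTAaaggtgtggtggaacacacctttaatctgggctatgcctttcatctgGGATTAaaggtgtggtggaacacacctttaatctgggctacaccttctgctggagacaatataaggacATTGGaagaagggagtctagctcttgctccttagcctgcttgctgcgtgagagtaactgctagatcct
Tdpoz1: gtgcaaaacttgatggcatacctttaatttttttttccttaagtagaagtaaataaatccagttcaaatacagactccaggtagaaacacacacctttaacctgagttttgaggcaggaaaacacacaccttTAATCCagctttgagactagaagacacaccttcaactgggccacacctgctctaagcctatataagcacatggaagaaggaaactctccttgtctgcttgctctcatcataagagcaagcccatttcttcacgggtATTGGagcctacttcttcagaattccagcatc
Zfp352 held the core 9 times between 227 and 61 bases before its start, at steps of 20 or 21 bases, and all 9 matches read in the reverse complement on the strand shown. Of 32851 RefSeq windows of the same length, 7.06% held the core at least once, 0.359% at least 2 times and 1 window at least 9 times. Sp110 held it 2 times in the first window, 53 bases apart, and once in the second, and Tdpoz1 held it once. The windows of Tdpoz4, Tdpoz5 and Nat8f2 held none. The annotated start of Tdpoz4 and of Tdpoz5 is the first base of the coding sequence, so their windows need not hold a promoter. CCAAT or its complement was found in 5 of the 7 windows, against 37.4% of all windows, GGGCGG in 1 against 35.7%, and TATAAA in 0 against 13.6%. Other forms of the TATA box were not searched for, and each of the windows shown holds tataag. A match of letters is a description of the window and no measure of binding.

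**Figure D1:**
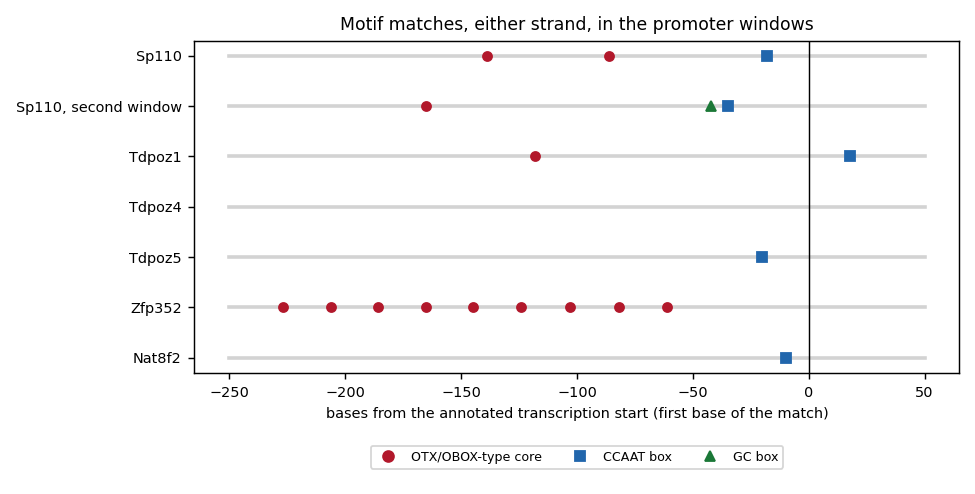
Positions of motif matches on either strand in the 7 promoter windows of the members, with bases from the annotated transcription start on the horizontal axis and one grey line per window. For Tdpoz4 and Tdpoz5 that start is the first coding base. The OTX/OBOX-type core stands for GGATTA, the CCAAT box for CCAAT and the GC box for GGGCGG; Zfp352 shows 9 evenly spaced cores, Sp110 2 and 1, Tdpoz1 1 and the other windows none.

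Levels are given as deposited, in FPKM, which divides the reads of a gene by its length and by the counted reads of its pool. Between 1136771 and 3101002 reads were counted per pool of the four-cell table, 4712268 to 10503779 in the two-cell table and 2603946 to 19181387 in the replication table. A gene was called when its mean log2(FPKM + 1) differed by at least 4-fold between groups with an adjusted p under 0.05 from limma, adjusted over all genes that reached 1 FPKM in 3 pools or more. Fold changes on this scale understate the change of genes near 0. The pools were taken as replicates, and since nothing ties them to separate days the p-values measure the spread between pools. The column names of the two-cell table give α-amanitin but not early or late: they form the sets NT with Am, and R with RAm, where Am marks α-amanitin and R is not explained. The 3 Am pools correlated with the NT pools at r of 0.912 to 0.932 over all genes and with the RAm pools at 0.773 to 0.813, so the α-amanitin group held pools of unlike kind, and each set is also given on its own. A lower level in a pool can come from fewer embryos or nuclei expressing a gene or from less RNA in each, and these cannot be told apart.

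In two-cell NT embryos all 9 genes had higher means without α-amanitin, and 8 of the 9 were called higher, against 11.1% of the 17196 genes tested. Of the 8, Tdpoz3 and B020004J07Rik reached 1 FPKM in fewer than 3 treated pools. They passed the filter only with the untreated pools, which favoured this direction. Tdpoz5 and Tdpoz4 led, followed by B020004J07Rik, while Nat8f2 missed the fold criterion. This order was not fixed: in NT and Am alone B020004J07Rik led at 4.33, against 4.15 for Tdpoz5 and 3.76 for Tdpoz4. With a pseudocount of 0.1 it also passed Tdpoz4, at 6.53 against 6.42. In 8 of the 9 genes, all but Tdpoz3, the lowest pool without α-amanitin lay above the highest pool with it, as in 16.3% of all genes tested. The median log2 change over all genes tested was 0.67.

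Tdpoz5, read together with Gm10697 as shown by the identical windows, was at 17.6, 212 and 259 FPKM (lowest, median and highest of 6) without α-amanitin and at 0, 1.49 and 8.68 FPKM with it. The groups did not overlap, but pool NT3 at 17.6 FPKM stood far below the other 5, which lay between 174 and 259 FPKM. The difference was 5.94 ± 0.72 (log2, SE, n = 6 pools per group, limma adjusted p = 9.59e-05), and the ratio of mean FPKM was 75.4. Within NT and Am that ratio was 31.2. Gm10697 had nearly the same levels, with a mean of 177 FPKM without and 2.44 FPKM with α-amanitin.

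Tdpoz4 was at 25.6, 123 and 189 FPKM without α-amanitin and at 0.129, 1.88 and 5.24 FPKM with it. NT3 was again the lowest pool without the inhibitor, and it was still above every treated pool. The difference was 5.32 ± 0.58 (log2, SE, n = 6 per group, limma adjusted p = 5.1e-05), with a ratio of means of 50.3. That ratio was 19.9 within NT and Am and 665 within R and RAm, where the RAm pools held 6.5 reads in all.

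Tdpoz1 was at 5.84, 25.8 and 43.1 FPKM without and 0.203, 1.15 and 3.01 FPKM with α-amanitin, a difference of 3.50 ± 0.46 (log2, SE, n = 6 per group, limma adjusted p = 0.000164). Tdpoz2 was at 7.65, 13.3 and 26.1 FPKM without and 0, 0.656 and 4.13 FPKM with it, a difference of 2.97 ± 0.47 (limma adjusted p = 0.000512). In both genes the groups did not overlap and NT3 was the lowest pool without α-amanitin. Tdpoz3, the copy with the least sequence of its own among Tdpoz1 to Tdpoz4, was at 0.546, 5.2 and 20 FPKM without and 0, 0.335 and 1.66 FPKM with α-amanitin. NT3 at 0.546 FPKM fell within the range of the treated pools, and the difference was 2.29 ± 0.53 (log2, SE, n = 6 per group, limma adjusted p = 0.00458). Without pool r1 the difference in Tdpoz3 was 1.97 and the 4-fold criterion was missed.

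Zfp352, the zinc finger gene with the repeated core in its promoter window, was at 14, 68.4 and 125 FPKM without α-amanitin and 2.85, 6.07 and 10.5 FPKM with it. Here R3 and not NT3 was the lowest untreated pool, and the groups did not overlap. The difference was 2.89 ± 0.52 (log2, SE, n = 6 per group, limma adjusted p = 0.00117). B020004J07Rik was at 13, 60.2 and 142 FPKM without and 0.0246, 0.198 and 6.48 FPKM with α-amanitin. Its difference was 4.77 ± 0.65 (limma adjusted p = 0.000197), and the untreated pools spread over 10.9-fold, from 13 FPKM in NT3 to 142 FPKM in NT1.

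Sp110, the nuclear body gene, kept the highest level of the 9 under α-amanitin. It was at 80.4, 174 and 234 FPKM without and 13.5, 32.3 and 50.9 FPKM with the inhibitor, a difference of 2.53 ± 0.45 (log2, SE, n = 6 per group, limma adjusted p = 0.00111). Nat8f2, the acetyltransferase gene, was at 10, 20 and 32 FPKM without and 3.57, 6.52 and 8.45 FPKM with it. The groups did not overlap, and the difference of 1.49 ± 0.37 (limma adjusted p = 0.00634) passed the adjusted p but was under 4-fold. By exact two-sided permutation of the 12 pools, 8 members had p = 0.00216, the smallest that 924 splits allow, and Tdpoz3 had p = 0.00866. These 9 exact p-values were not adjusted.

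**Figure D2:**
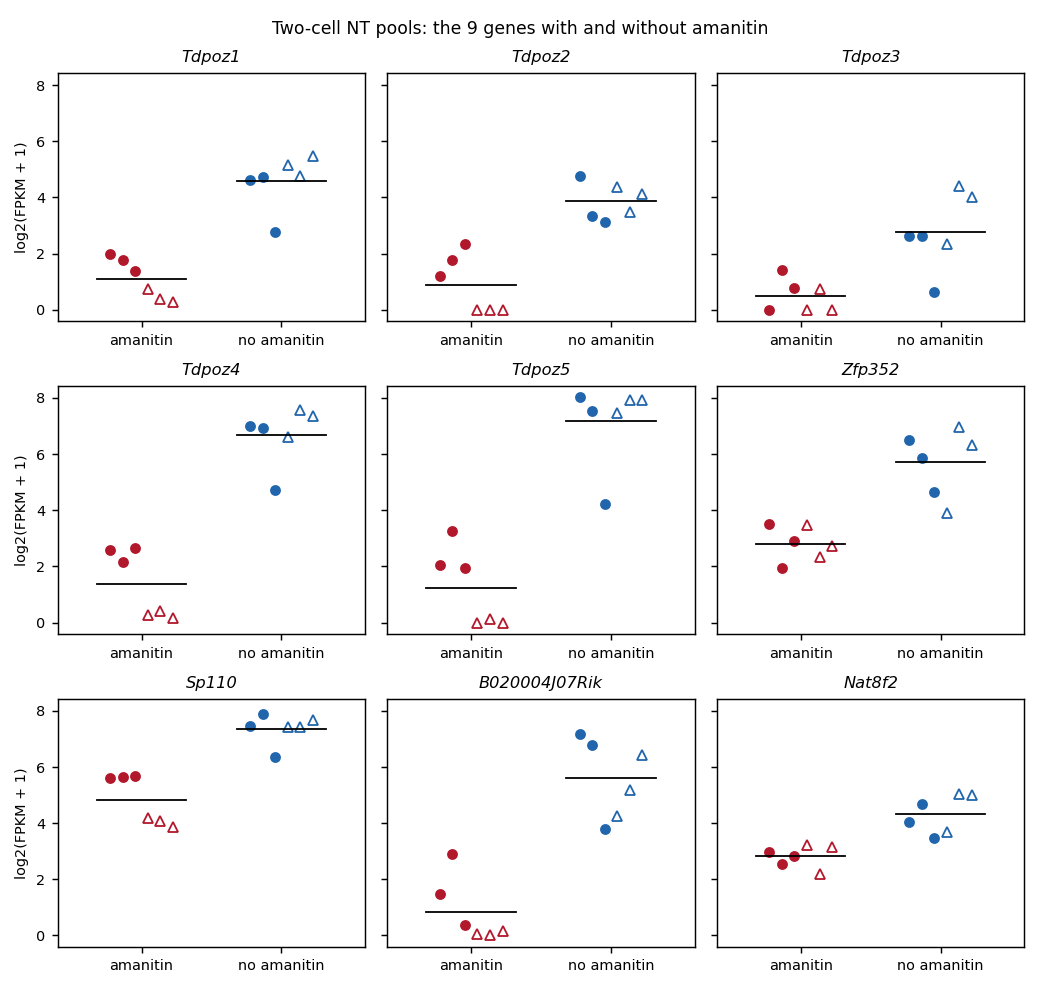
log2(FPKM + 1) of each member in the 12 two-cell pools, red with and blue without α-amanitin, with filled circles for the column set NT and Am, open triangles for R and RAm, and a line at the mean of each group of 6. The groups do not overlap in 8 panels, and the lowest filled blue circle is pool NT3. The red triangles lie below the red circles in all panels but those of Tdpoz3, Zfp352 and Nat8f2.

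The pair of column sets differed in what α-amanitin left. Tdpoz2 was at 0 FPKM in all 3 RAm pools and at 1.31, 2.42 and 4.13 FPKM in the Am pools. Tdpoz4 was at 0.206, 0.339 and 0.129 FPKM in RAm against 4.96, 3.42 and 5.24 FPKM in Am. Sp110 was at 17.3, 15.9 and 13.5 FPKM in RAm against 47.3, 48.5 and 50.9 FPKM in Am. For Tdpoz2, Tdpoz4 and Sp110 every RAm pool lay below every Am pool, as for Tdpoz1, Tdpoz5 and B020004J07Rik but not for Tdpoz3. How many of all genes showed this order was not counted. Zfp352 was at 10, 4.06 and 5.64 FPKM in RAm against 10.5, 2.85 and 6.5 FPKM in Am, and Nat8f2 at 8.45, 3.57 and 7.98 against 6.94, 4.86 and 6.09 FPKM, with the pools overlapping in both. The maternal sum was 781 to 2180 FPKM in RAm and 247 to 433 FPKM in Am, and spike-ins took 8.77% to 11.3% and 6.54% to 8.93% of the reads. Their part in the levels was not tested. Against the floor of 3 reads in each RAm pool, Tdpoz2 was at least 48.8-fold higher in the R pools, at 19.8, 10.1 and 16.4 FPKM. Tdpoz5 rested on 0, 0.78 and 0 reads in the RAm pools. These recovered read numbers need not be whole in this table, and no fold is given for Tdpoz5 there.

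Within NT and Am, 5 members were called higher (Tdpoz1, Tdpoz4, Tdpoz5, Zfp352 and B020004J07Rik), against 3.29% of the 14285 genes tested. B020004J07Rik, at 0.285 FPKM in Am3, passed the filter there only with the NT pools. Within R and RAm, 8 were called, against 33% of 14387 genes, but Tdpoz1 to Tdpoz5 and B020004J07Rik were under 1 FPKM in every RAm pool, so 6 of the 8 passed the filter through the R pools alone and their direction was fixed by it. The effect of α-amanitin was larger in R and RAm for 5 members in a test of the difference itself, against 36% of the 17196 genes. The excess was 3.58 ± 1.06 for Tdpoz5 (log2, SE, limma adjusted p = 0.0165), 3.13 ± 0.70 for Tdpoz4 (limma adjusted p = 0.00357), 2.36 ± 0.63 for Tdpoz1 (limma adjusted p = 0.00954), 2.04 ± 0.61 for Tdpoz2 (limma adjusted p = 0.0171) and 1.86 ± 0.45 for Sp110 (limma adjusted p = 0.00525). For Zfp352 it was 0.02 ± 1.02 (limma adjusted p = 0.988), with effects of 2.87 in NT and Am and 2.90 in R and RAm. The excess of Tdpoz1, Tdpoz2, Tdpoz4 and Tdpoz5 was measured against RAm pools under 1 FPKM, so its size depends on the 1 added to FPKM. Those pools held 0 reads of Tdpoz2 and at most 0.78 reads of Tdpoz5. The sets were formed from column names after the values were seen, and whether they are the early and the late embryos was not tested.

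Values that moved with these levels were the spike-in RNA and the maternal transcripts. Spike-ins took 2.38% to 6.26% of the reads without and 6.54% to 11.3% with α-amanitin, and NT3 had the highest share of the untreated pools. Summed over 10 maternal genes, the level was 69.1 to 241 FPKM without and 247 to 2180 FPKM with α-amanitin. Oosp1 made up most of the sum, at a mean of 72.7 FPKM without and 768 FPKM with it. Of the 9 maternal genes tested 5 were called lower without α-amanitin, and Zp3 was at 41 against 37.1 FPKM (limma adjusted p = 0.974). With FPKM scaled to 47 spike-ins found in every pool, all 9 members were called higher, against 34% of genes, and the median change of all genes was 1.49. Scaled by the median of ratios over genes, that median was 0.23, 6 members were called higher, against 4.95% of genes, and Tdpoz3 (1.88), Sp110 (1.72) and Nat8f2 (0.73) were under 4-fold. In NT3 the list of 10 myoblast genes, led by Acta2, summed to 249 FPKM, the highest of the 12 pools, and its part in the low members there was not tested.

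In four-cell NT embryos most of the 9 genes rested on few reads. Tdpoz2 and Nat8f2 were called higher without α-amanitin, 2 of 9, against 6.2% of the 9884 genes tested. Both reached 1 FPKM in only 1 treated pool, S16 for Tdpoz2 and S18 for Nat8f2. They passed the filter only with the untreated pools, which favoured this direction, and so did Tdpoz4. Tdpoz3 and Tdpoz5 did not pass the filter on low values. The maternal genes summed to 21.9 to 36.1 FPKM without and 42.3 to 152 FPKM with α-amanitin, with 0 of 7 called, and the myoblast genes to 17.8 to 93.1 FPKM without and 80.7 to 299 FPKM with it, with 0 of 4 called. Their part in the members' differences was not tested. Reads could be recovered from this table, because every value was a whole multiple of 1 read, and they are given beside the levels.

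Tdpoz2 was at 11.9, 14.8 and 19.4 FPKM (31, 31 and 48 reads) in pools S15, S17 and S7 without α-amanitin. With it the gene was at 2.82 FPKM (10 reads) in S16 and at 0 in S18 and S8. The groups did not overlap, and the difference was 3.36 ± 0.59 (log2, SE, n = 3 pools per group, limma adjusted p = 0.0123). Leaving out S15, S17 or S7 gave adjusted p-values of 0.053, 0.0582 and 0.0665. Nat8f2 was at 5.32, 4.64 and 14.3 FPKM without and 0.586, 2.13 and 0.572 FPKM with α-amanitin, again without overlap, as in 27.6% of the genes tested. Its difference was 2.04 ± 0.53 (log2, SE, n = 3 per group, limma adjusted p = 0.0405), and it was not called when any of the 6 pools was left out (adjusted p 0.0526 to 0.152). The call was also lost with a pseudocount of 0.1 (limma adjusted p = 0.0616), with no filter (0.123) and with median-of-ratios scaling (0.0626). It was kept in limma-voom on the recovered reads, at a difference of 2.93 (limma-voom adjusted p = 0.0395).

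Tdpoz1 and B020004J07Rik reached 1 FPKM in no treated pool and passed the filter through the untreated pools alone. Tdpoz1 was at 3.92, 2.09 and 4.13 FPKM (21, 9 and 21 reads) without α-amanitin and had 1 read in each treated pool. Its difference was 1.77 ± 0.38 (log2, SE, n = 3 per group, limma adjusted p = 0.0221), under 4-fold on this scale, while the ratio of reads per counted read was 15.8 (95% exact interval 5.11 to 79.1, counting error only). B020004J07Rik was at 1.78, 1.38 and 3.04 FPKM (8, 5 and 13 reads) without and had 0 reads in all 3 pools with α-amanitin. Against 3 reads in each treated pool this was at least 2.23-fold higher, and the fitted difference was 1.58 ± 0.34 (limma adjusted p = 0.0228). The differences were larger with a pseudocount of 0.1 (3.27 and 4.36, limma adjusted p of 0.0374 and 0.028) and in limma-voom on the recovered reads (3.26 and 3.89, adjusted p of 0.02 and 0.013), where both were called, with the same filter fixing their direction. With no filter the limma adjusted p was 0.116 for Tdpoz1 and 0.118 for B020004J07Rik, neither was called when a treated pool was left out, and neither reached the filter without S15, S17 or S7.

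Tdpoz4 was at 8.28, 11.8 and 22.8 FPKM without α-amanitin, and at 8.98 FPKM in S16 and 0 in S18 and S8 with it. S16 overlapped the untreated pools, and the difference of 2.72 ± 0.87 (log2, SE, n = 3 per group) had a limma adjusted p = 0.0772. Without S16, which leaves treated pools at 0 only, Tdpoz4 passed the filter through the untreated pools alone (limma adjusted p = 0.00704). Zfp352 was at 4.05, 0.96 and 29.1 FPKM without and 1.28, 0 and 0.277 FPKM with α-amanitin. S7 held the highest level by far, S16 lay above S17, and the difference was 2.23 ± 0.89 (limma adjusted p = 0.138). Sp110 was the most abundant member, at 126, 95.2 and 65.7 FPKM without and 68.8, 35.3 and 31.5 FPKM with α-amanitin. S16 lay above S7 in Sp110 too, and the difference was 1.10 ± 0.37 (limma adjusted p = 0.0868).

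S16 was the deepest pool of this table, with 3101002 counted reads, and the treated pool with the most genes detected. It was the highest treated pool in Tdpoz2, Tdpoz4, Zfp352 and Sp110 but not in Tdpoz1 or Nat8f2. Without S16, 889 genes were called in all, against 649 with it, and Nat8f2 was not called (adjusted p = 0.0713 by limma). Tdpoz2 and Tdpoz4 were called, but both were then at 0 FPKM in the remaining treated pools and passed the filter through the untreated pools alone.

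**Figure D3:**
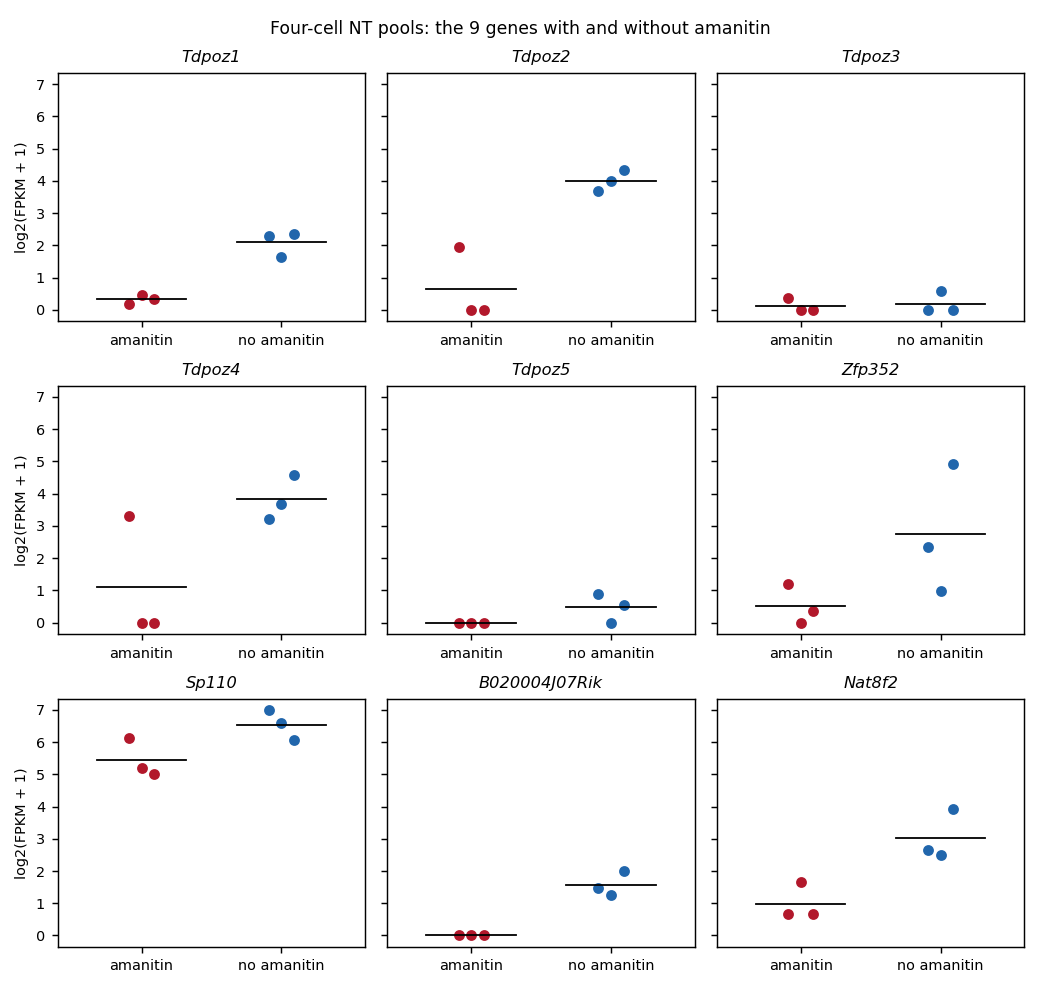
log2(FPKM + 1) of each member in the 6 four-cell pools, red with and blue without α-amanitin, with a line at the mean of each group of 3. Tdpoz3 and Tdpoz5 lie near 0 in every pool, Tdpoz1, Tdpoz2, B020004J07Rik and Nat8f2 do not overlap between the groups, and 1 red point, pool S16, reaches the blue points in Tdpoz4.

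Tdpoz5, the gene with no run of its own, differed widely in level between tables. In the four-cell table it had 2, 0 and 1 reads in the untreated pools and 0 in all treated pools, and Gm10697, its identical copy, had 1, 2 and 1 reads and again 0. In the replication table, whose embryos were also at the four-cell stage and also without α-amanitin, Tdpoz5 was at 33.1 to 235 FPKM and Gm10697 at 32 to 220 FPKM. Of the values above 0, 100% were whole reads in the four-cell table and 40.3% to 50.5% in the other tables. Tdpoz4, with 58.8% of its runs found in no other gene, was at 8.28 to 22.8 FPKM in the untreated four-cell pools and 17.9 to 318 FPKM in the replication pools. The tables were made separately, so levels set across them are given side by side, and the part of the counting in this gap was not tested.

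In the replication experiment 0 of the 9 genes passed the test between DR and D, and 0% of the 14570 genes tested were called by limma, with 897 at an unadjusted p under 0.05. The groups overlapped in all 9 members, and the pools within a group spread widely. Every member had its 3 highest levels in the pools DR2, D1 and D4 and its 3 lowest in DR1, DR3 and D5. Among all genes tested, 8.02% had the same 3 pools highest. This order was noticed in the values and carries no test, and the members are not independent of each other.

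Zfp352 had the widest spread within DR, 265-fold from the lowest pool, raised to the level of 3 reads, to the highest. It was at 0.126, 100 and 1.43 FPKM in DR1, DR2 and DR3 and at 158, 63 and 0.693 FPKM in D1, D4 and D5. In reads this was 1, 970.5 and 8.5 against 2178, 2752 and 11, so the low pools rested on a few reads. The difference, DR minus D, was -1.99 ± 2.11 (log2, SE, n = 3 pools per group, limma adjusted p = 0.86). B020004J07Rik was at 8.93, 86.2 and 16.1 FPKM in DR and 204, 175 and 4.97 FPKM in D, a difference of -1.29 ± 1.43 (limma adjusted p = 0.861).

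Tdpoz3 was at 0.785, 4.11 and 1.22 FPKM in DR1, DR2 and DR3 and at 105, 18.2 and 0.0522 FPKM in D1, D4 and D5. The level in D5 rested on 0.4 reads, and with that pool raised to 3 reads the D pools spread over 267-fold. Its difference was -2.24 ± 1.5 (log2, SE, n = 3 per group, limma adjusted p = 0.808). Tdpoz4 was at 46.4, 74.8 and 42.5 FPKM in DR and 318, 95.6 and 17.9 FPKM in D (limma adjusted p = 0.886). Tdpoz5 was at 63.1, 118 and 51.4 FPKM in DR and 235, 206 and 33.1 FPKM in D (limma adjusted p = 0.861). D1 was the highest and D5 the lowest pool for Tdpoz1, Tdpoz3, Tdpoz4, Tdpoz5 and B020004J07Rik.

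Tdpoz1 was at 5.39, 12.8 and 5.26 FPKM in DR and 62.6, 28.7 and 1.57 FPKM in D (limma adjusted p = 0.858). Tdpoz2 was at 13.7, 31.9 and 22.8 FPKM in DR and 24.7, 74.8 and 12.6 FPKM in D (limma adjusted p = 0.894), with D4 rather than D1 the highest pool. Sp110 varied least within each group, 1.56-fold in DR and 1.88-fold in D. It was at 157, 245 and 173 FPKM in DR and 220, 301 and 161 FPKM in D, a difference of -0.22 ± 0.29 (log2, SE, n = 3 per group, limma adjusted p = 0.878). Nat8f2 was at 2.31, 18.9 and 8.63 FPKM in DR and 28.4, 14.2 and 9.6 FPKM in D (limma adjusted p = 0.813).

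**Figure D4:**
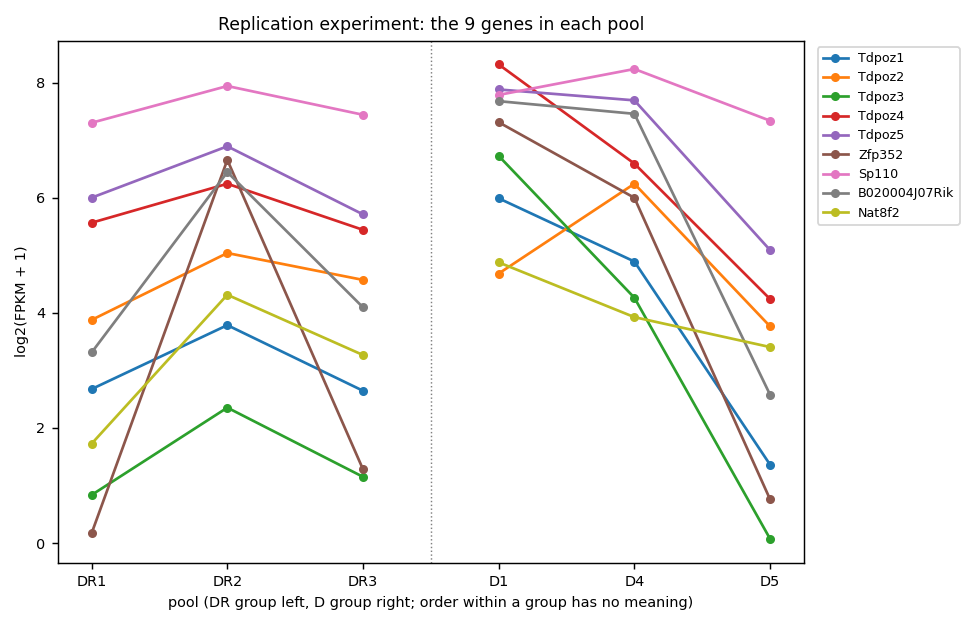
log2(FPKM + 1) of the 9 members in each pool of the replication experiment, with DR pools on the left and D pools on the right of the dotted line, and lines joining pools of 1 group to guide the eye. DR2 stands above DR1 and DR3, and D1 and D4 above D5, in all 9 genes, while the groups overlap.

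Depth and spike-ins did not follow this order in full. The counted reads were 3482496, 4252278 and 2603946 in DR1, DR2 and DR3 and 6059974, 19181387 and 6972797 in D1, D4 and D5, so DR2 was the deepest of its group but D1 was the shallowest of its own. Spike-ins took 0.493%, 0.441% and 0.0448% of the reads in DR and 0.0181%, 0.056% and 0.776% in D. The 14 relatives of SPOP and parts of the CUL3 ligase in the table, none of them a member but several of them copies that share sequence with Tdpoz genes, summed to 375, 719 and 410 FPKM in DR and 1290, 1120 and 386 FPKM in D, in the same 3 pools highest. The sum of 28 genes of the two-cell burst of transcription was 1060, 1710 and 1410 FPKM in DR and 12400, 1230 and 797 FPKM in D, where D4 was not among the highest 3. The 10 myoblast genes summed to 42.7, 24.3 and 23.4 FPKM in DR and 7.46, 44.6 and 105 FPKM in D, lowest in D1, where 7 of the 9 members were highest, and highest in D5, where 6 of the 9 were lowest. The part of donor cell RNA, embryo stage, depth or pool handling in this order was not tested.

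The difference of each member in the 3 contrasts is drawn together. The filter set the direction of Tdpoz1 and B020004J07Rik in the four-cell contrast. It favoured that of Tdpoz2, Tdpoz4 and Nat8f2 there, and of Tdpoz3 and B020004J07Rik in the two-cell contrast. Pearson's r of a member with the mean of the other 8 was 0.86 to 0.99 over the 12 two-cell pools, 0.70 to 0.99 over the 6 replication pools and 0.09 (Tdpoz3) to 0.96 (Tdpoz2) over the 6 four-cell pools, with 0.68 for Tdpoz5. These coefficients describe pools that share the α-amanitin state or the depth, and related genes that share reads.

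**Figure D5:**
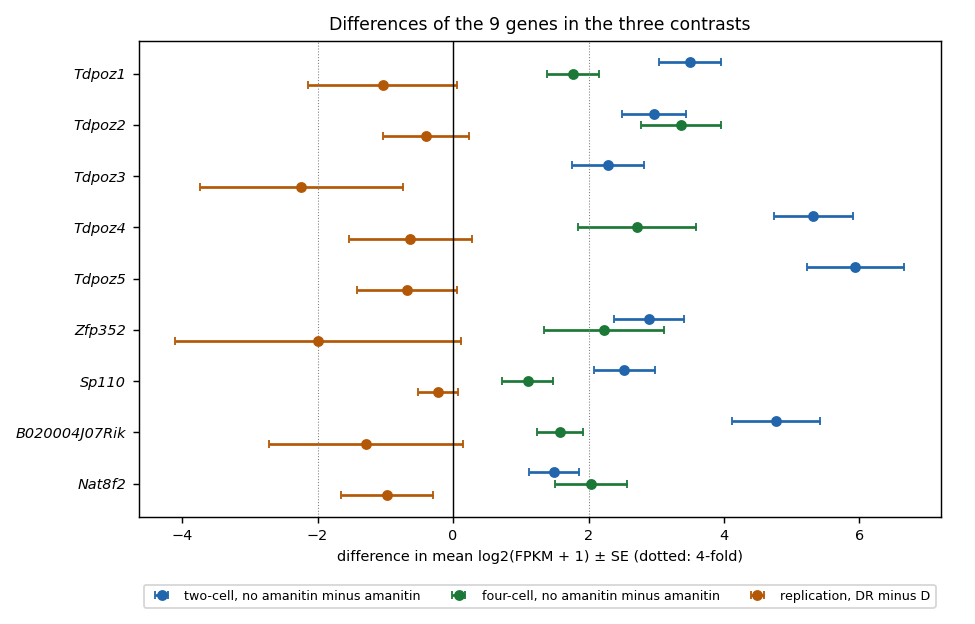
Difference in mean log2(FPKM + 1) with its SE for each member in the two-cell contrast (blue, 6 pools per group) and the four-cell contrast (green, 3 per group), both no amanitin minus amanitin, and in the replication contrast (orange, DR minus D, 3 per group), with dotted lines at 4-fold. Blue points run from 1.49 (Nat8f2) to 5.94 (Tdpoz5), all orange points lie below 0, and Tdpoz3 and Tdpoz5 have no green point because they did not pass the filter.

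The genes that share sequence with the Tdpoz members were described by the same tests. Apart from the 5 members, 19 genes shared at least 1 run of 50 bases with one of them, annotated as protein-coding copies or unprocessed pseudogenes. All 19 were tested in the two-cell table and 18 were called higher without α-amanitin, with a median difference of 3.30 against 0.67 over all genes. Some of the 18 had means under 1 FPKM with α-amanitin, down to 0.401 FPKM in Gm9141. Such genes can pass the filter only with the untreated pools, which favours this direction. Gm5543, a pseudogene named here after its values were seen, was at a mean of 267 FPKM without and 5.27 FPKM with α-amanitin. Of them, 7 were tested in the four-cell table and 2 called, the pseudogenes Gm9131 and Gm5541, both at 0 FPKM in every treated pool, so that they passed the filter through the untreated pools alone. Between DR and D 0 of 19 were called. These genes share reads with the members, so they are no separate evidence.

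Of the other genes of each member's pathway, the SPOP and CUL3 list had 13 genes tested in the two-cell table and 8 called higher, against 11.1% of all genes, with a median difference of 2.63 against 0.67. Of the 8, 7 are Tdpoz7 and other copies of the SPOP-like kind. The only part of the ligase called was Cul3, its scaffold, at 132 ± 42.7 FPKM without and 38.9 ± 38.7 FPKM with α-amanitin (SD, n = 6, limma adjusted p = 0.013). Rbx1, the RING subunit, was at 116 and 54.5 FPKM (limma adjusted p = 0.0301, under 4-fold). Spop itself was at 25.1 ± 8.63 and 14.0 ± 4.75 FPKM (limma adjusted p = 0.0878). Of this list, 5 genes were tested in the four-cell embryos and 0 called, and 13 were tested between DR and D and 0 called. Sp140, the relative of Sp110, was called higher in the two-cell table, at 72.2 ± 24.8 against 10.5 ± 1.45 FPKM (limma adjusted p = 0.000206), and Sp100 was at 0.821 against 0.528 FPKM (limma adjusted p = 0.395). Of 9 NAT8 relatives found, Nat8f1 alone passed the filter there, at 2.28 against 0.655 FPKM (limma adjusted p = 0.0343, under 4-fold), and their sum did not exceed 5.57 FPKM in any two-cell pool. Zfp353-ps, the pseudogene most alike to Zfp352, was at 5.43 against 0.924 FPKM (limma adjusted p = 0.0231, under 4-fold).

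Over the two-cell pools, the 5 protein-coding genes whose log2(FPKM + 1) was most alike to the mean of the members, among 4702 genes with a mean of at least 5 FPKM, were Tdpoz7 (r = 0.994), Tdpoz8 (r = 0.989), Uap1 (r = 0.989), Mrm3 (r = 0.989) and Gm8332 (r = 0.985). Uap1 makes UDP-N-acetylglucosamine, and Mrm3 methylates mitochondrial ribosomal RNA. Over the 6 four-cell pools their r was 0.74, 0.941, 0.928, 0.796 and 0.837. Over the 6 replication pools, where no α-amanitin state sets the pools apart, it was 0.97 for Tdpoz7 and 0.966 for Tdpoz8 but 0.693 for Uap1, 0.265 for Mrm3 and 0.589 for Gm8332. No p is given, since the genes were picked for likeness and the pools share their treatment.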

How the data were processed

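RNA-seq was measured in pools of NT embryos. The deposited tables gave FPKM values per gene, which the authors made from reads aligned to mm10. The submitters' processing notes name Trimmomatic, Trim Galore, cutadapt, STAR and featureCounts, with no versions. Samples were grouped by the labels and the column names. In the replication data 4 library columns matched no sample and were not used, nor was the deposited file on oryx genes, which holds the authors' fold changes and p-values beside values per library. The members and the gene lists were chosen with earlier results of these data known.

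Genes that reached 1 FPKM in 3 pools or more were tested on log2(FPKM + 1) with limma 3.58.1 (trend) in R 4.3.3, with Benjamini-Hochberg adjustment over all genes tested. Calls needed an adjusted p under 0.05 and a 4-fold change. The scripts were tested on simulated data. Reads were recovered as whole multiples, within a tolerance of 0.01, of what 1 read is worth. Shared 50-base runs and motifs were counted with Python 3.11.15 and Biopython 1.88, and plots were drawn with matplotlib 3.10.9. Named were the 9 members, at most 4 genes per list with the highest mean FPKM, and the 5 genes most alike to the members. Alternatives were a pseudocount of 0.1, no filter, median-of-ratios and spike-in scaling, no fold criterion, limma-voom on recovered reads and leaving out each pool. The tests by column set, the shared sequence and the pool order were added after seeing the data. Intervals and floors of 3 reads cover counting error only.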

Additional observations from a re-analysis of the deposited data

Results flagged for a closer look

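Among the 18 groups of 6 two-cell pools, 1 for each member with and without α-amanitin, 3 held a pool far from the rest by Dixon's criterion, where chance alone marks some groups. Tdpoz5 was at 17.6 FPKM in NT3, far below the other pools without α-amanitin, and at 8.68 FPKM in Am2, far above the other pools with it. B020004J07Rik was at 6.48 FPKM in Am2, also far above the other pools with α-amanitin.

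The change with α-amanitin differed between the column sets, in the test of the difference itself, for 5 members. On the log2 scale, the change in R and RAm exceeded that in NT and Am by 2.36 for Tdpoz1 and 2.04 for Tdpoz2. The excess was 3.13 for Tdpoz4, 3.58 for Tdpoz5 and 1.86 for Sp110. Of all genes, 36% passed the same test in the same direction. The RAm pools together held 0 reads of Tdpoz2, 0.78 of Tdpoz5, 6.5 of Tdpoz4 and 24 of Tdpoz1. For these Tdpoz genes the size of the excess depends on the constant added to FPKM and is no exact value.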

How the results depend on the processing

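In four-cell embryos 649 genes were called, against 264 with no filter, 1205 with no fold criterion, 980 by limma-voom on recovered reads and 60 to 889 when a pool was left out. Of the members, 2 were called, against 3 with a pseudocount of 0.1, 1 with no filter, 1 with median-of-ratios scaling, 4 with no fold criterion, 4 by limma-voom and 0 to 2 when a pool was left out, with 0 without S15, S17 or S7. In two-cell embryos 2178 genes were called, against 5050 with a pseudocount of 0.1, 8158 with no fold criterion, 5879 with spike-in scaling, 540 in NT and Am alone, 5635 in R and RAm alone and 1556 to 2835 when a pool was left out. Median-of-ratios scaling gave 1600 calls, 851 higher and 749 lower, against 1906 higher and 272 lower. Of the members, 8 were called, against 5 in NT and Am alone and 7 to 8 when a pool was left out. Between DR and D 0 genes were called under each alternative run, and with a pool left out the difference ran from -0.97 to 0.27 for Tdpoz2, positive without D4, from -1.7 to 0.33 for Tdpoz4, positive without D1, from -3.96 to -0.67 for Zfp352, from -4.05 to -0.72 for Tdpoz3, from -2.4 to -0.09 for Tdpoz1 and from -2.95 to -0.4 for B020004J07Rik. With spike-in scaling the median over all genes between DR and D moved from 0.02 to -1.41, and the members' differences lay between -4.16 (Tdpoz3) and -1.87 (Sp110), with a limma adjusted p of 0.713 for each. The cause was not tested. Over the single members' differences in the 3 tables, 327 values kept direction and side of the threshold, 18 lost the call, 9 gained it and 2 turned. limma-voom was not run on the two-cell and replication tables, whose values are not whole reads. Between 1136771 and 3101002 counted reads per pool limit the four-cell levels, where Tdpoz3 and Tdpoz5 rested on at most 2 reads a pool. With the number in the two-cell column names as a replicate block within each column set (NT1 with Am1, R3 with RAm3), a choice made after seeing the data, 2151 genes and 8 members were called. The deviations of same-numbered pools correlated at r of 0.01 to 0.07 over genes in 6 pairs, of which 4 correlated best with their own number, so the pools share only a number. No paired fit was made for the other tables, since no number is shared between the groups of four-cell columns and only 1 between DR and D.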

Other observations

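Of the genes of the two-cell burst of transcription, 16 of 25 tested were called higher without α-amanitin in two-cell embryos (median difference 2.97 against 0.67 over all genes) and 7 of 12 in four-cell embryos (3.77 against 0.37), where 11.1% and 6.2% of all genes were. Of those 7, 6 were under 1 FPKM in the treated pools and passed the filter through the untreated pools alone, which fixed their direction. Of the 16, at least Gm4340 and Usp17ld, at means of 0.187 and 0.405 FPKM with α-amanitin, passed only with the untreated pools. The Zscan4 genes, which belong to that list, were singled out here after their values were seen. The summed level of Zscan4a to Zscan4f was 2960 FPKM in pool D1 of the replication experiment and 0.347 to 2.07 FPKM in the other 5 pools. The members were also high in DR2 and D4, where Zscan4 stood at 0.935 and 2.07 FPKM. In the two-cell pools the same sum was 10 to 26.1 FPKM without and 12.4 to 48.5 FPKM with α-amanitin, and in the four-cell table it was 0 to 0.24 FPKM.

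The 5 Tdpoz genes summed to 57.2 to 487 FPKM in the two-cell pools without α-amanitin and 0.331 to 18.6 FPKM with it. Tdpoz5 made up 30.7% to 58.9% of that sum in the untreated pools, with the lowest share in NT3, and 0% to 3.44% in the untreated four-cell pools. All its 50-base runs are shared with other genes, the values are whole reads in the four-cell table alone, and the part of reads that fit several genes in these shares was not tested.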
